A study of Danio rerio with 12 samples.

Results

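The nuclear genes for subunits of respiratory complexes III, IV and V were followed in zebrafish (Danio rerio) melanomas. Members were taken by gene symbol, lower-cased and without any copy suffix, as names that begin with uqcr, cyc1, cox4i, cox5, cox6, cox7, cox8, atp5 or usmg5. The rule found 45 of the 27827 genes in the table, of which 9 belong to complex III, 17 to complex IV and 19 to complex V, and all 45 passed the filter on low counts. PolyA RNA was sequenced from 6 melanomas with MiniCoopR-MyrRSK (the MyrRSK group) and 6 with MiniCoopR-GFP (the GFP group). MiniCoopR is a vector that returns mitfa, the melanocyte master regulator, to mitfa-deficient fish and drives a second gene from the mitfa promoter, so both groups carry it. The name MyrRSK denotes RSK, a ribosomal S6 kinase, with a myristoylation signal that directs it to membranes. The host genotype, the age of the fish and whether each tumour came from a different fish are not stated in the labels, so p-values measure only the spread between these 12 samples. The tumours are bulk tissue, in which fewer cells of a type and less RNA per cell cannot be told apart.

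Complex III passes electrons from ubiquinol to cytochrome c, complex IV passes them on to oxygen, and both pump protons across the inner mitochondrial membrane. Complex V, the ATP synthase, lets the protons return through its membrane part (Fo) and makes ATP in its matrix part (F1). In mammals several complex IV subunits have paralogs for particular tissues or conditions, such as COX6A2 and COX7A1 in heart and skeletal muscle and COX4I2 in lung and in low oxygen. The teleost genome duplication left further copies, named a and b in zebrafish. By its title the study concerns oxidative phosphorylation in the invasion of primary melanoma, and the comparison is MyrRSK against GFP melanomas.

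Library totals ran from 61750434 to 72257237 counts, and 26866 genes were tested. All 8 melanocyte markers found were present in every library, with a summed CPM of 3899 to 16479 in MyrRSK and 1250 to 34374 in GFP melanomas (CPM is counts per 1e+06 counts of a TMM-scaled library). Of these 8, log2 fold changes were above 0 for 1 and below 0 for 7, beside 44.9% and 55.1% of all genes tested. Of the 8, 0 were called, and 2 passed on the lower side without adjustment, as did 8.33% of all genes tested. Those were oca2 (4.40 ± 2.09 CPM in MyrRSK and 130 ± 176 CPM in GFP melanomas) and slc24a5 (77.4 ± 41.8 CPM in MyrRSK and 311 ± 228 CPM in GFP melanomas), both pigment genes. Skeletal muscle markers were also read. Of 31 tested, 28 were on the positive and 3 on the negative side, and 3 were called higher, with edgeR at a Benjamini-Hochberg adjusted p under 0.05. Of all genes tested, 44.9% were positive and 0.29% were called higher. The mean log2 CPM of the 31 muscle markers had a median of 1.27 in MyrRSK melanomas, with a range of -0.79 to 3.20, against a median of -0.81 and a range of -1.07 to -0.23 in GFP melanomas. It was highest in MyrRSK 4 and MyrRSK 2, while MyrRSK 3 lay inside the GFP range. The summed CPM of all muscle markers found overlapped widely, at 243 to 1431 in MyrRSK and 103 to 1239 in GFP melanomas. The calcium pump gene atp2a1 dominates that sum and had a log2 fold change of -0.08 ± 0.68. Without atp2a1 the sum was 38.3 to 600 in MyrRSK and 37.9 to 48.1 in GFP melanomas. The muscle markers pvalb2, pvalb3, ckmb, cav3 and tnni2a.4 had a count of 0 in 1 or more libraries. No tested marker of heart muscle, epidermis, red blood cells, macrophages and neutrophils, endothelium or hepatocytes was called. Among them the hepatocyte marker tfa, a transferrin gene, had 78.2 ± 55.0 CPM in MyrRSK and 5.54 ± 7.65 CPM in GFP melanomas (adjusted p = 0.0975, edgeR). Of the 4 hepatocyte markers tested, 3 were on the positive and 1 on the negative side. Without tfa their summed CPM was 0.80 to 1.95 in MyrRSK and 0.54 to 2.04 in GFP melanomas. That sum hides AHSG, at 0.52 ± 0.26 CPM in MyrRSK and 0.081 ± 0.083 CPM in GFP melanomas (adjusted p = 0.0740, edgeR). All 6 MyrRSK libraries lay above every GFP library for AHSG (background 1.01%), at a low level of at most 0.91 CPM. For apoa2 and fabp10a the log2 fold changes were -0.30 ± 0.53 and 0.02 ± 0.36. The part of other cell types in the results that follow was not tested beyond the fit with the muscle score.

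No subunit gene of complexes III, IV or V was called. With edgeR's quasi-likelihood test, adjusted over all genes tested, 0 of 45 were higher and 0 lower, against a background of 0.29% of all genes higher and 0.115% lower. Without adjustment, 11 of 45 passed on the higher side (background 7.18%) and 0 on the lower side (background 8.33%). DESeq2 called 7 of 44 higher (background 3.05%) and 0 lower (background 2.92%). With limma-voom 0 were called higher (background 0.32%) and 0 lower (background 0.0744%). The authors' deposited table holds an adjusted p for 42 members, of which 6 were higher (background 2.88%) and 0 lower (background 2.29%) at the same threshold. Log2 fold changes were positive for 33 and negative for 12 of the 45, with a median of 0.21, while 44.9% of all genes tested were positive and their median was -0.07. The groups did not overlap for 3 members, cox5aa, USMG5 and atp5o, each higher in MyrRSK (background 1.01%), and for 0 that were lower (background 0.722%). The 11, 7 and 6 higher members all include cox5aa and COX5A (2 of 3), which share their annotated span with other genes, as described below.

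**Figure D1:**
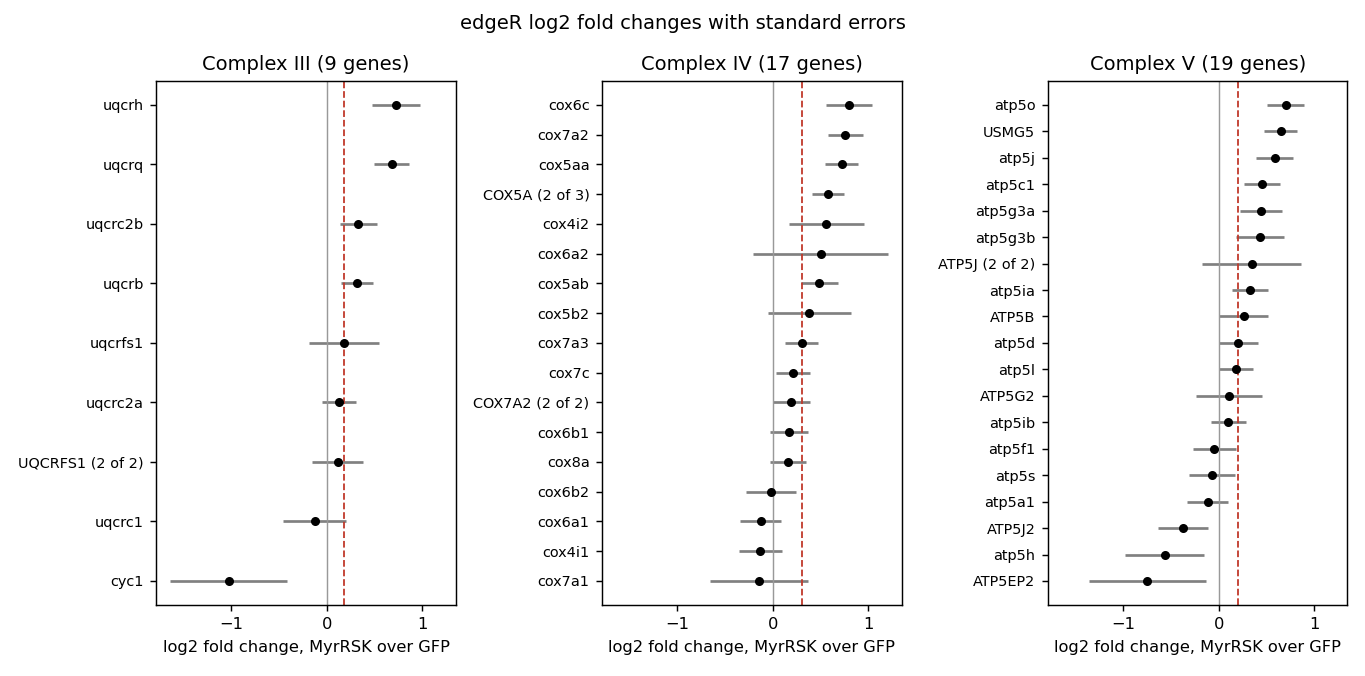
Log2 fold changes (MyrRSK over GFP, horizontal axis) of the 45 subunit genes by complex. Points are edgeR estimates with standard errors, the grey line is 0 and the red dashed line is the median of the complex, 0.18, 0.30 and 0.21 for complexes III, IV and V.

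The members were spread unevenly over the libraries. MyrRSK 2 and MyrRSK 4 each had 34 of the 45 above the gene's own 12-library mean, and MyrRSK 5 had 19. Of the GFP melanomas, GFP 4 had 28 and GFP 5 had 22, while GFP 1 had 7 and GFP 6 had 8. The groups thus overlapped, with GFP 4 level with MyrRSK 3 at 28. The SD of log2(CPM + 1) was larger in GFP than in MyrRSK melanomas for 35 of 45 members (77.8%), near the 71.9% among all genes with a mean CPM of at least 1. With the muscle marker score as a covariate, which moved the median of all genes to -0.08, the median of the 45 was 0.13. In that fit 3 of 45 members passed without adjustment on the higher side (background 4.92%) and 0 on the lower side (background 3.82%). The score differs between the groups, and standard errors were larger with it, which limits how many can pass. The log2 fold change of cox5aa was 0.67 ± 0.26 with the score and 0.72 ± 0.17 without it. That of cox7a2 was 0.53 ± 0.26 and 0.76 ± 0.18. Most of the 45 estimates fell with the score and a minority rose. Of the 11 members that passed without adjustment in the main fit, only uqcrq rose (0.91 ± 0.26 with the score, 0.68 ± 0.18 without). Among the others that rose was cox6a2 (1.70 ± 0.74 and 0.50 ± 0.70). The cox6a2 estimate without the score turned to -0.51 when MyrRSK 3 was left out. Whether muscle content accounts for the lower count was not tested.

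**Figure D2:**
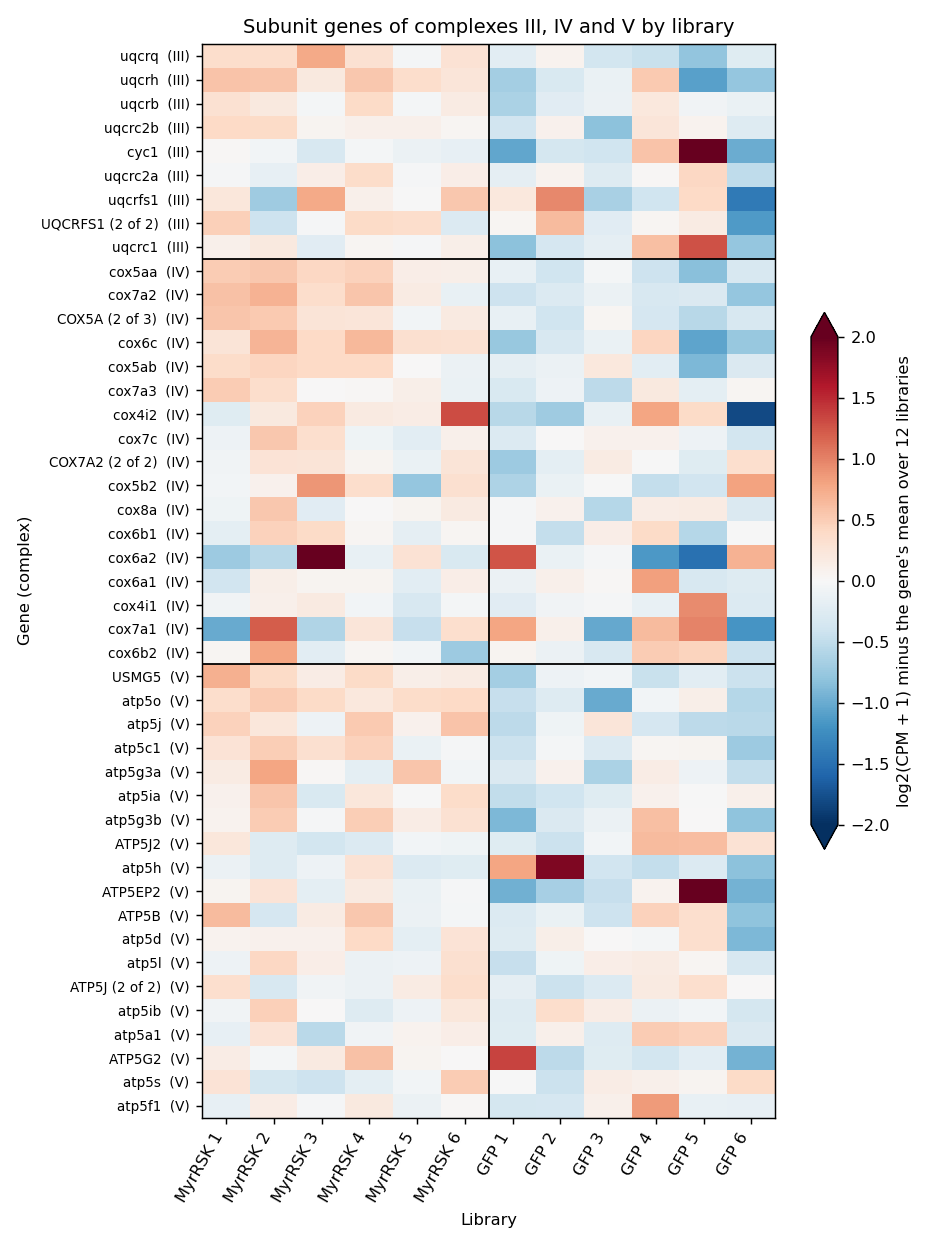
Each row is a subunit gene and each column a library, with MyrRSK melanomas on the left. Colour gives log2(CPM + 1) minus the gene's mean over the 12 libraries (scale cut at -2 and 2). The darkest cells include cyc1 and ATP5EP2 in GFP 5, atp5h in GFP 2, cox6a2 in MyrRSK 3 and cox4i2 in GFP 6.

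Complex III was represented by core, catalytic and small subunits. Of its 9 genes 7 had positive and 2 negative log2 fold changes, with a median of 0.18, and 2 passed on the higher side without adjustment. Among all genes tested 44.9% were positive and 7.18% passed on that side. The small subunit gene uqcrq (ENSDARG00000029064, chromosome 14, 40371530 to 40374871, Zv9), which encodes a ubiquinone-binding protein, had 37.4, 48.6 and 65.9 CPM as lowest, median and highest in MyrRSK melanomas. In GFP melanomas it had 21.8, 31.1 and 40.6 CPM. In 5 of 6 MyrRSK libraries it stood above every GFP library. It had a log2 fold change of 0.68 ± 0.18 (SE; adjusted p = 0.108 by edgeR and 0.0142 by DESeq2).

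The hinge protein gene uqcrh, whose product helps cytochrome c1 to dock cytochrome c, had 117, 139 and 152 CPM (lowest, median, highest) in MyrRSK melanomas. In GFP melanomas it had 47.4, 73.2 and 147 CPM. GFP 4 alone reached the MyrRSK range, and the log2 fold change was 0.73 ± 0.25 (adjusted p = 0.187, edgeR). The gene uqcrb, for another small ubiquinone-binding subunit, had 78.3, 91.4 and 105 CPM in MyrRSK and 51.8, 73.9 and 93.1 CPM in GFP melanomas. Its log2 fold change was 0.31 ± 0.17 (adjusted p = 0.389, edgeR), and the groups overlapped.

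No core or catalytic gene of complex III passed, with or without adjustment. The core protein gene uqcrc1 had 148, 183 and 200 CPM in MyrRSK melanomas and 97.9, 146 and 418 CPM in GFP melanomas, the highest in GFP 5. On the log2 scale the fold change was -0.13 ± 0.33 (adjusted p = 0.881, edgeR), and 0.25 without GFP 5. For uqcrc2a, uqcrc2b and both copies of uqcrfs1, which encodes the Rieske iron-sulfur protein, the log2 fold changes lay between 0.12 and 0.33 and none was called. Cytochrome c1 (cyc1) is described with its chromosomal neighbours below.

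Without adjustment 5 of 17 complex IV genes passed on the higher side, beside 4 of 19 in complex V and 2 of 9 in complex III. The 5 include cox5aa and COX5A (2 of 3), which share their annotated span with other genes, as described below. Of the 17 complex IV genes 13 had positive and 4 negative log2 fold changes, the median was 0.30, and the 5 passed on the higher side. The shares among all genes tested were 44.9% positive and 7.18% passing on that side. The gene cox5aa (ENSDARG00000088383, chromosome 25, 29941849 to 29946829), for a matrix-side subunit of the early assembly core, had 155, 193 and 208 CPM in MyrRSK melanomas. In GFP melanomas it had 79.0, 111 and 138 CPM, so the groups did not overlap. It lies inside the span of another gene, described with the overlapping genes below. Its fold change on the log2 scale was 0.72 ± 0.17 (adjusted p = 0.0798 by edgeR and 0.00148 by DESeq2). In the authors' deposited table its adjusted p was 0.00177. Its duplicate cox5ab (chromosome 18) had 47.2, 67.1 and 69.0 CPM in MyrRSK and 26.9, 44.7 and 59.5 CPM in GFP melanomas, a log2 fold change of 0.49 ± 0.19 (adjusted p = 0.250, edgeR).

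The small membrane subunit gene cox7a2 (ENSDARG00000053217, chromosome 17, 50497328 to 50509536) had 53.0, 81.0 and 95.6 CPM in MyrRSK melanomas. In GFP melanomas it had 33.8, 47.2 and 54.2 CPM. MyrRSK 6 lay inside the GFP range and the other 5 MyrRSK libraries above it, and the log2 fold change was 0.76 ± 0.18 (adjusted p = 0.0802 with edgeR, 0.00432 with DESeq2). The gene cox6c, for another small membrane subunit, was chosen after its values were seen, since its log2 fold change of 0.80 ± 0.24 was the largest of the 45. It had 131, 141 and 176 CPM in MyrRSK and 52.2, 75.9 and 149 CPM in GFP melanomas, where GFP 4 was again the highest. Its adjusted p was 0.137 with edgeR and 0.0466 with DESeq2.

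The complex IV genes cox4i1 and cox6b2 had log2 fold changes near 0, with overlapping groups. The gene cox4i1, for the subunit through which ATP slows the enzyme in mammals, had 185, 224 and 262 CPM in MyrRSK and 190, 214 and 445 CPM in GFP melanomas, the highest again in GFP 5. For cox4i1 the log2 fold change was -0.13 ± 0.23 (adjusted p = 0.820, edgeR), and 0.12 without GFP 5. The cox6b2 gene, a paralog of the subunit that faces the intermembrane space, had 74.7, 123 and 216 CPM in MyrRSK and 92.6, 122 and 176 CPM in GFP melanomas (log2 fold change -0.02 ± 0.26, adjusted p = 0.981, edgeR).

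**Figure D3:**
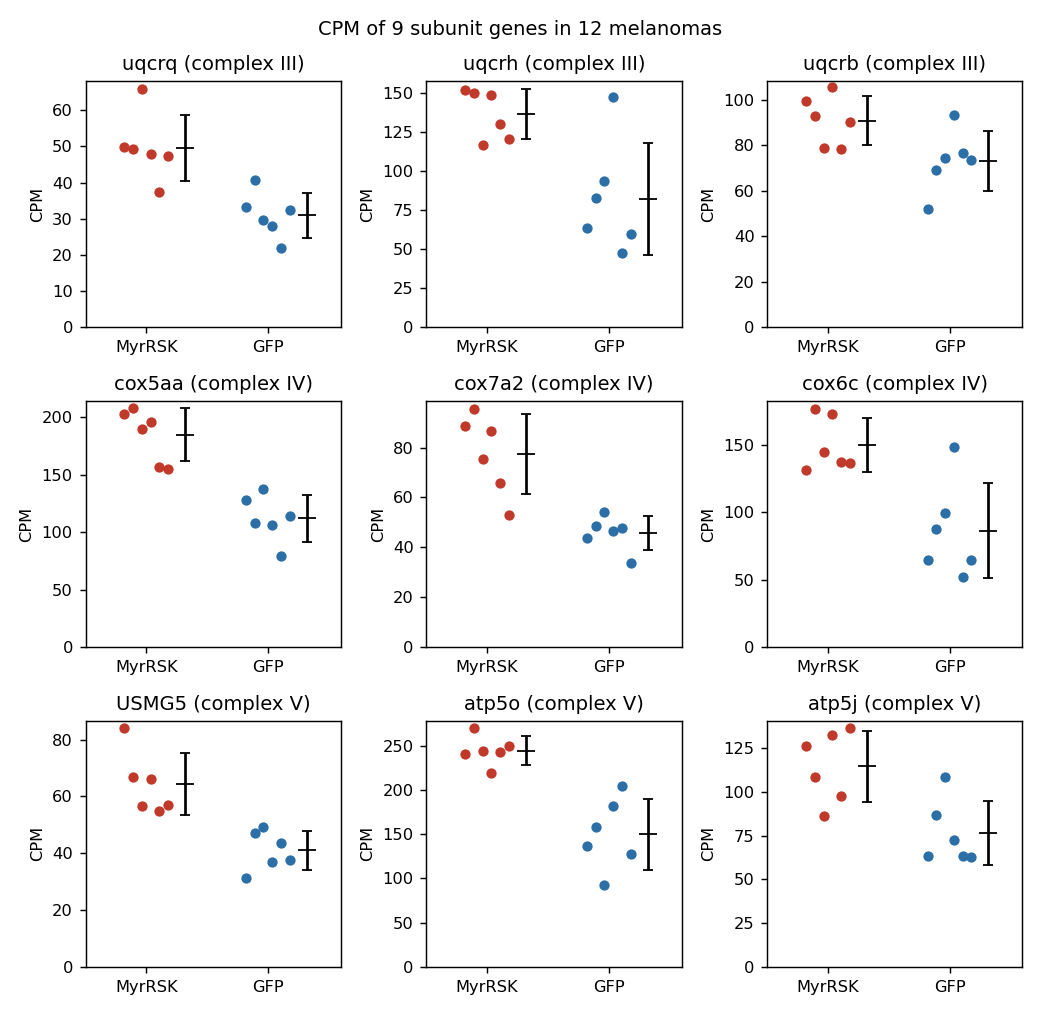
CPM by library (vertical axis, from 0) for 3 subunit genes of each complex. Red points are MyrRSK and blue points GFP melanomas, and black marks give the mean and SD (n = 6 each). For cox5aa, USMG5 and atp5o every MyrRSK point lies above every GFP point, while GFP 4 reaches the MyrRSK range for uqcrh and cox6c.

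Genes named like mammalian tissue or hypoxia isoforms had wide ranges within both groups, and none was called. The cox4i2 gene had 65.7, 88.7 and 195 CPM in MyrRSK melanomas, the highest in MyrRSK 6, and 21.6, 61.5 and 135 CPM in GFP melanomas, the lowest in GFP 6. The log2 fold change of cox4i2, 0.56 ± 0.39, did not pass (adjusted p = 0.522, edgeR), and was 0.29 without MyrRSK 6, 0.84 without GFP 4 and 0.37 without GFP 6. The cox6a2 gene had 2.33, 3.72 and 25.8 CPM in MyrRSK and 0.968, 4.23 and 12.2 CPM in GFP melanomas. Its log2 fold change was 0.50 ± 0.70, and -0.51 without MyrRSK 3, the library with the highest value. The table names COX6A1 as the human ortholog of zebrafish cox6a2 and COX6A2 as that of cox6a1, so the suffixes do not match between the species. The cox7a1 gene had 3.14, 6.95 and 18.2 CPM in MyrRSK and 2.66, 9.90 and 15.5 CPM in GFP melanomas, with a log2 fold change of -0.14 ± 0.51. With the muscle score as a covariate cox7a1 stood at -1.27 ± 0.63 and cox6a2 at 1.70 ± 0.74 on the log2 scale, and neither was called.

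In complex V, 13 of 19 genes had positive and 6 negative log2 fold changes, with a median of 0.21, and 4 passed on the higher side without adjustment. Beside this, 44.9% of all genes tested were positive and 7.18% passed on that side. The stalk subunit gene atp5o (ENSDARG00000001788, chromosome 9, 34178830 to 34182181), which encodes the oligomycin sensitivity-conferring protein that joins F1 to Fo, had 219, 243 and 270 CPM in MyrRSK melanomas. In GFP melanomas it had 92.7, 147 and 205 CPM, without overlap. For atp5o the log2 fold change was 0.70 ± 0.20 (adjusted p = 0.113 by edgeR and 0.0145 by DESeq2). USMG5 (ENSDARG00000096003, chromosome 1, 49938536 to 49941291) encodes a small Fo protein linked to dimers of the synthase. It had 55.0, 61.6 and 84.0 CPM in MyrRSK and 31.4, 40.6 and 49.1 CPM in GFP melanomas, without overlap (0.65 ± 0.17, adjusted p = 0.0991 with edgeR and 0.00950 with DESeq2). The gene atp5j, for coupling factor 6 of the stalk, had 86.0, 117 and 137 CPM in MyrRSK and 62.9, 68.1 and 109 CPM in GFP melanomas. For atp5j the log2 fold change was 0.59 ± 0.19 (adjusted p = 0.167, edgeR).

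For the alpha and beta subunits of F1 the log2 fold changes were -0.11 ± 0.21 (adjusted p = 0.832, edgeR) and 0.26 ± 0.26 (adjusted p = 0.662). ATP5B, for the catalytic beta subunit, had 561, 744 and 1108 CPM in MyrRSK and 406, 615 and 977 CPM in GFP melanomas, and atp5a1, for the alpha subunit, had 399, 583 and 704 CPM in MyrRSK and 475, 558 and 824 CPM in GFP melanomas. Both pairs of ranges overlapped widely. Of the F1 gamma and delta genes, atp5c1 stood at a log2 fold change of 0.45 ± 0.19 (adjusted p = 0.275, edgeR), the highest among the 20 members not given by library, and atp5d had 0.21 ± 0.20. The lowest of those 20 was ATP5J2, at -0.37, and 16 of them were positive. The list includes atp5s, a coupling factor whose current symbol is DMAC2L, and 2 genes, ATP5J2 and ATP5J (2 of 2), that now carry clone names, so their place in the complex is uncertain.

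For some members of complexes III, IV and V the group difference changed sign when 1 library was left out. Across the 540 member values, 25 lay at least 2-fold from the median of the other 11 libraries. Of these, 3 above and 1 below were in MyrRSK libraries, and 8 above and 13 below in GFP libraries. In each library and direction that held such a member, 4.15% to 11.03% of all genes with a mean CPM of at least 1 lay that far off. Such departures thus also occurred outside the members. The share of all genes over both directions and all libraries, or by group, is not given here, so the 25 are not ranked against it. Cytochrome c1 (cyc1, ENSDARG00000038075, chromosome 6, 50332650 to 50341392), the complex III subunit that hands electrons to cytochrome c, had 129, 152 and 164 CPM in MyrRSK melanomas. In GFP melanomas it had 77.7, 124 and 1185 CPM. GFP 5 stood at 8.25 times the median of the other libraries. ATP5EP2 (chromosome 6, 49845154 to 49853806), listed with human ATP5E, the F1 epsilon subunit, had 80.3, 93.5 and 112 CPM in MyrRSK and 46.9, 62.7 and 637 CPM in GFP melanomas, and GFP 5 stood at 7.60 times the median of the others.

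Both genes changed the sign of their log2 fold change without GFP 5. The log2 fold change of cyc1 was -1.03 ± 0.61 with all libraries and 0.21 without GFP 5, and that of ATP5EP2 was -0.75 ± 0.61 and 0.58, with no call in either case. In the authors' deposited table, cyc1, ATP5EP2 and atp5h are the 3 members with no p-value. cyc1 and ATP5EP2 lie within the same stretch of chromosome 6. Of 26 genes with a mean CPM of at least 1 that start within 1 Mb of cyc1, 24 were at least 2-fold above the median of the other libraries in GFP 5 (92.3%), with a median log2 departure of 2.97. Over all such genes of GFP 5 the share was 6.20% and the median 0.02. A run of 46 genes from 47470470 to 50682052 held 42 that were at least 2-fold and 34 that were at least 4-fold above in GFP 5. In the other libraries the median departure over this run lay between -0.51 and 0.25.

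Beyond 1 Mb past cyc1 most genes were lower in GFP 5 than in the other libraries. Of 40 genes that start 5 to 1 Mb before cyc1, all 40 were above the median of the other libraries in GFP 5, with a median log2 departure of 1.95. Of 60 genes that start 1 to 5 Mb past it, 55 were below, with a median of -0.78. The complex IV gene cox6c (chromosome 6, 52186260 to 52192348) lies among those, and GFP 5 was its lowest library at 52.2 CPM. Elsewhere on the chromosome uqcrc1 (24021387 to 24036382) was at 2.45 times and uqcrh (3316353 to 3322070) at 0.393 times the median of the others in GFP 5, while the c-ring gene atp5g3b (10741791 to 10746869) had a log2 departure of -0.07.

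**Figure D4:**
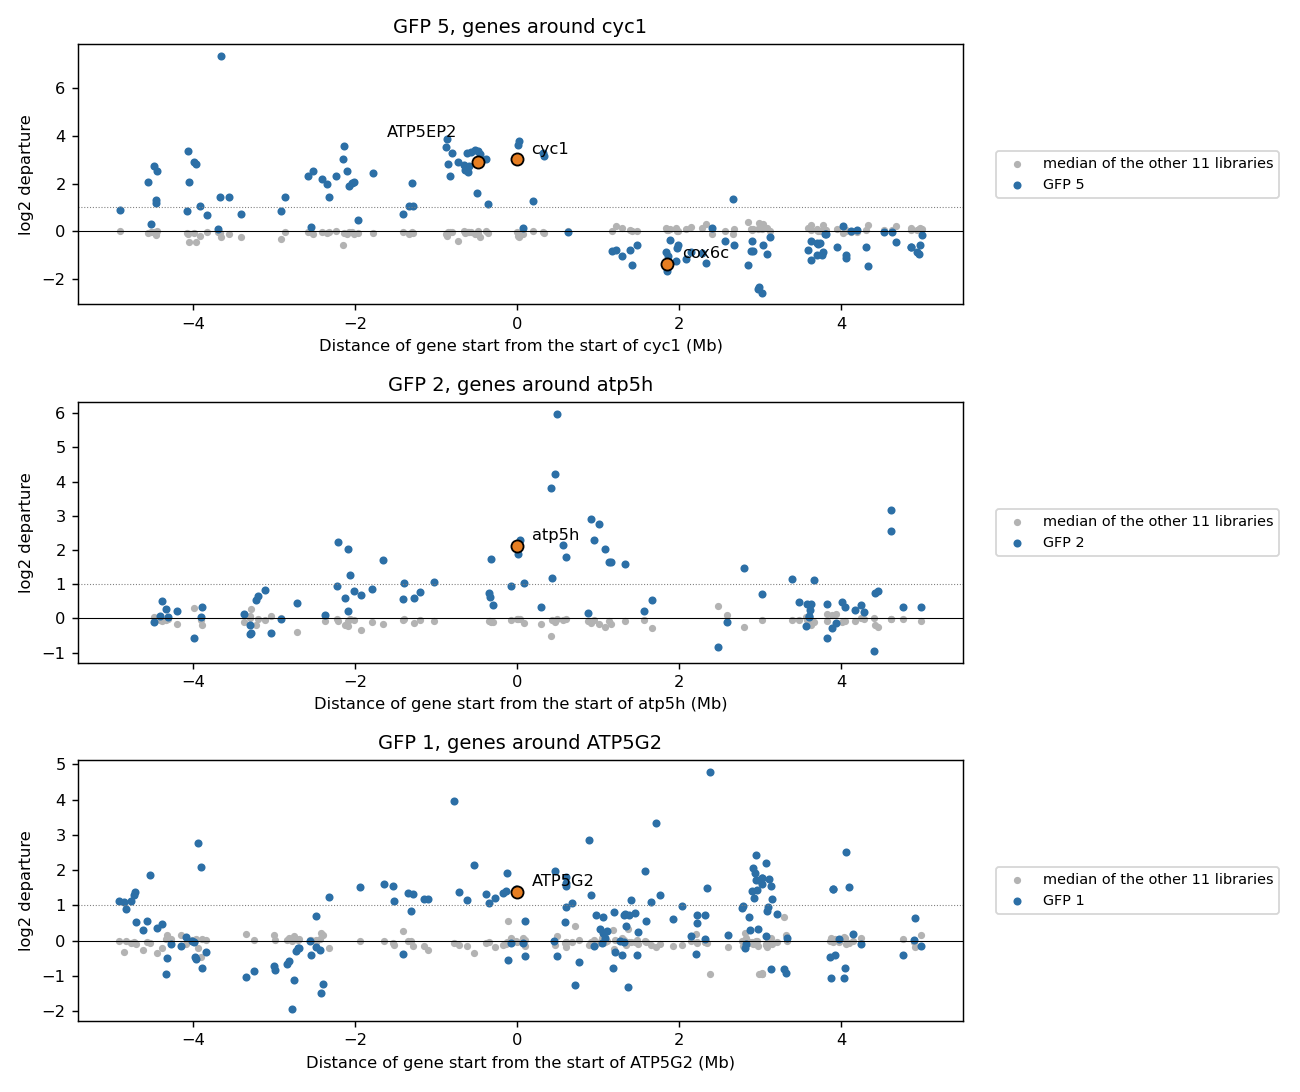
Each blue point is a gene with a mean CPM of at least 1, placed by the distance of its start from the start of a member (Mb, horizontal) and by its log2(CPM + 1) minus the median of the other 11 libraries (vertical). Grey points give the median departure of the other libraries and orange points are members; in GFP 5 genes lie above 0 up to cyc1 and mostly below 0 from 1 Mb past it, with cox6c at -1.37.

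A like pattern was seen around atp5h, for subunit d of the peripheral stalk (chromosome 3, 49710754 to 49720005). It had 115, 124 and 171 CPM in MyrRSK melanomas and 78.3, 111 and 512 CPM in GFP melanomas, with GFP 2 at 4.39 and GFP 1 at 2.08 times the median of the others. Within 1 Mb, 12 of 18 genes were at least 2-fold above in GFP 2 and 11 of 18 in GFP 1, where 8.04% and 11.03% of all genes were. The run that held atp5h had 19 genes in GFP 2, of which 17 were at least 2-fold above, and 20 genes in GFP 1, of which 15 were. The log2 fold change of atp5h was -0.56 ± 0.42, and 0.38 without GFP 1 and GFP 2 (adjusted p = 0.350, edgeR). ATP5G2, a c-ring gene on the same chromosome (23890533 to 23895475), had 123, 136 and 189 CPM in MyrRSK and 64.9, 103 and 326 CPM in GFP melanomas. GFP 1 held its highest value, and 18 of 31 neighbours within 1 Mb were at least 2-fold above in it. Genes that were not lay between them, and the run that held ATP5G2 in GFP 1 had only 2 genes, 0 of them 4-fold above. A run ended where 2 genes in a row fell below 2-fold. The log2 fold change of ATP5G2 was 0.11 ± 0.34, and 0.61 without GFP 1. DNA copy number was not analysed here, and its part in these values was not tested.

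Around other members that stood apart in a library, smaller shares of the neighbours within 1 Mb departed with them. The largest was for uqcrc1 in GFP 5, where 9 of 24 genes within 1 Mb (37.5%) were at least 2-fold above. Within 5 Mb of uqcrc1 it was 54 of 125 (43.2%), near the 43.7% within 5 Mb of cyc1. The run that held uqcrc1 in GFP 5 had 8 genes, of which 7 were at least 2-fold and 1 at least 4-fold above. For cox6c in GFP 5, 8 of 22 genes within 1 Mb (36.4%) were at least 2-fold below, beside 7.74% of all genes. For cox6a2 in MyrRSK 3, at 6.52 times the median of the other libraries, 6 of 43 genes within 1 Mb (13.95%) and 72 of 286 within 5 Mb (25.2%) were at least 2-fold above, where 7.83% of all genes were. For cox4i1 in GFP 5, at 2.02 times, 4 of 20 genes within 1 Mb were at least 2-fold above, beside 6.20% of all genes. For cox4i2 in GFP 6, at 0.245 times, 2 of 54 (3.70%) were at least 2-fold below, beside 5.32% of all genes.

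Paralogs within each complex were compared by their ratio within a library. Library scaling all but cancels in it where both copies lie well above the 1 CPM added. ATP5J (2 of 2), at 0.11 to 0.92 CPM, does not. For atp5j over ATP5J (2 of 2) the exact permutation p was 0.227, 0.0931 and 0.0152 with 0.5, 1 and 5 CPM added. Because the table gives no transcript lengths, the ratio itself does not rank the levels of the copies, and only its difference between groups is read. There were 19 pairs in 10 families, and 0 passed after adjustment over the pairs (exact permutation test, two-sided, with every regrouping of the libraries enumerated; smallest adjusted p = 0.206), with 2 at an unadjusted p under 0.05. The log2 ratio of cox5aa over cox5ab was 1.57 ± 0.08 in MyrRSK and 1.34 ± 0.15 in GFP melanomas (SD, n = 6), a difference of 0.23 ± 0.07 (SE; exact permutation p = 0.0108, adjusted p = 0.206). In 4 of 6 MyrRSK libraries it lay above every GFP library. The log2 ratio of cox7a2 over cox7a3, whose listed human ortholog is COX7A2L, a factor of respiratory supercomplexes, was 0.95 ± 0.22 in MyrRSK and 0.51 ± 0.41 in GFP melanomas (difference 0.44 ± 0.19, exact permutation p = 0.0390, adjusted p = 0.257). Without GFP 3 that difference was 0.56 with an adjusted exact permutation p of 0.0411.

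No other pair passed, with or without adjustment. The log2 ratio of cox7a2 over its copy COX7A2 (2 of 2) was 1.39 ± 0.38 in MyrRSK and 0.88 ± 0.48 in GFP melanomas, a difference of 0.51 ± 0.25 (exact p = 0.0541, adjusted p = 0.257). COX7A2 (2 of 2) itself had 23.9, 29.4 and 31.9 CPM in MyrRSK and 15.4, 24.5 and 33.5 CPM in GFP melanomas (log2 fold change 0.20 ± 0.19), and cox7a3 had 31.9, 36.9 and 50.5 CPM in MyrRSK and 24.2, 31.7 and 40.3 CPM in GFP melanomas (0.30 ± 0.18). For cox4i1 over cox4i2 the difference was -0.75 ± 0.39 (exact p = 0.0887). For the Rieske copies, uqcrfs1 over UQCRFS1 (2 of 2), it was 0.14 ± 0.27, and for the c-ring genes atp5g3a over atp5g3b it was -0.08 ± 0.26.

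With the muscle score as a covariate of the ratio 0 of the 19 pairs passed, with or without adjustment over the pairs (smallest exact permutation p = 0.0584, adjusted p = 0.308). The estimates moved for some pairs. The difference was -1.83 with the score and -0.36 without it for cox6a1 over cox6a2, and -1.57 with it and -0.83 without it for cox7a1 over cox7a2. MyrRSK 3 was the only MyrRSK library inside the GFP range of the score. It also had the lowest MyrRSK log2 ratio of cox6a1 over cox6a2, at 2.58. The fit with the score was not repeated without MyrRSK 3.

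**Figure D5:**
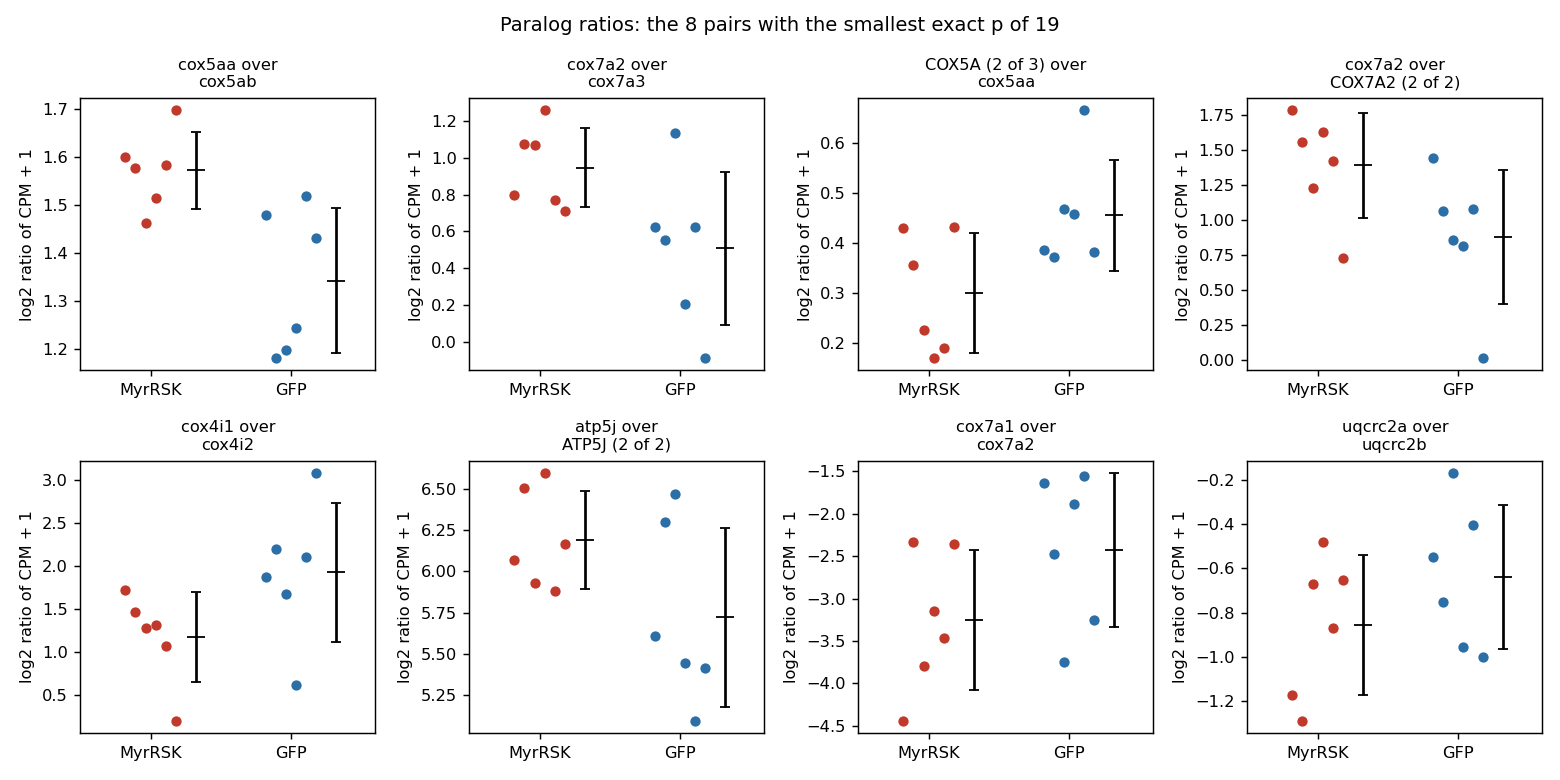
Log2 ratio of CPM + 1 between paralogs in each library (vertical axes, not starting at 0) for the 8 pairs with the smallest exact p of 19. Red points are MyrRSK and blue points GFP melanomas, with mean and SD in black (n = 6 each). The groups overlap in every pair, including cox5aa over cox5ab, where 4 MyrRSK points lie above all GFP points. ATP5J (2 of 2) lies below the 1 CPM added, so its ratio depends on that value.

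Some subunit genes share their annotated span with another gene, and for some of them the ratio of both counts was nearly the same in every library. COX5A (2 of 3) (ENSDARG00000017906, chromosome 25, 30047197 to 30199838) overlaps pkmb, a pyruvate kinase gene of glycolysis, over 132984 bases. Its count was between 0.979 and 0.996 times the pkmb count in the 12 libraries. It had 179, 221 and 274 CPM in MyrRSK and 126, 147 and 191 CPM in GFP melanomas, and its log2 fold change of 0.58 ± 0.17 (adjusted p = 0.126 with edgeR, 0.0129 with DESeq2) stood beside 0.58 ± 0.17 for pkmb. The count of cox8a was between 0.997 and 1 times that of si:dkey-270m17.3, and that of atp5g3b between 0.865 and 0.948 times that of lnpb. For uqcrb the range was 0.861 to 0.966 times si:dkey-231l1.12, and for cox5aa, which lies inside the span of arid3b, it was 0.705 to 0.893. The count of atp5g3a was between 2.40 and 2.75 times that of si:ch1073-470i20.2. The table gives no strand, so which gene of such a pair the reads came from cannot be told apart. The values given above for these members, and the counts of members that include them, carry that limit. Among the pairs the limit touches cox5aa over cox5ab, COX5A (2 of 3) over cox5ab, and COX5A (2 of 3) over cox5aa (difference -0.15 ± 0.07, exact p = 0.0541). It also touches each pair among ATP5G2, atp5g3a and atp5g3b.

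Genes that assemble or connect these complexes were read from a list chosen by function. Of 39 assembly factor genes of complexes III, IV and V, 1 was called higher and 0 lower with edgeR (background 0.29% and 0.115%). Of these 39, 32 had positive and 7 negative log2 fold changes, with a median of 0.26, beside 44.9% positive and a median of -0.07 among all genes tested. Without adjustment 7 passed higher (background 7.18%) and 2 lower (background 8.33%). The lower ones were FASTKD5 (-0.70 ± 0.25, adjusted p = 0.207, edgeR) and PET117 (-0.71 ± 0.30, adjusted p = 0.271, edgeR). COX20, COA6 and bcs1l are named below because their p was the smallest after that of cox17. The called gene was cox17, which brings copper to complex IV, at 54.9 ± 8.21 CPM in MyrRSK and 21.4 ± 3.02 CPM in GFP melanomas (SD, n = 6 each). The log2 fold change of cox17 was 1.36 ± 0.17 (adjusted p = 0.0165, edgeR). The call ended, at nearly the same fold change, without GFP 2 (1.32, adjusted p = 0.0537), without GFP 1, GFP 2 and GFP 5 (1.32, adjusted p = 0.0572), without MyrRSK 2 and MyrRSK 4 (1.42, adjusted p = 0.0746) and when the muscle score was added to the fit (1.35, adjusted p = 0.0940). COX20, a chaperone of the mitochondrially encoded subunit COX2, had 12.4 ± 3.39 CPM in MyrRSK and 6.13 ± 1.22 CPM in GFP melanomas (1.02 ± 0.23, adjusted p = 0.0678, edgeR). COA6, a further factor of copper delivery, had 16.4 ± 3.47 CPM in MyrRSK and 9.86 ± 1.61 CPM in GFP melanomas (0.74 ± 0.19, adjusted p = 0.0991, edgeR). The complex III assembly gene bcs1l, whose product inserts the Rieske protein, had 16.3 ± 2.87 CPM in MyrRSK and 9.57 ± 2.30 CPM in GFP melanomas (0.77 ± 0.21, adjusted p = 0.103, edgeR). For these 4 of the 39 genes (cox17, COX20, COA6 and bcs1l) all 6 MyrRSK libraries lay above every GFP library (background 1.01%). The cytochrome c gene cycsb, for the carrier between complexes III and IV, had 237 ± 59.4 CPM in MyrRSK and 160 ± 51.4 CPM in GFP melanomas (0.56 ± 0.24, adjusted p = 0.273, edgeR), with overlap.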

How the data were processed

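PolyA RNA of 12 melanomas was analysed from 1 deposited table. The authors deposited raw whole-number counts for each Ensembl gene in each library. The normalized columns and the mean over them are a signal made by the authors, the count divided by 1 size factor per library (largest relative spread 9.84e-10), and were not tested. The log2 fold changes, their test statistic (a score) and the p-values in the deposited table are the authors' own. Per the submitters' processing notes, the tools were STAR 2.6.1d, HTSeq 0.6.0 and DESeq2 and the build was Zv9. Settings, strand and annotation release were not stated there. Genes with a mean normalized count under 5.08 are not analysed here.

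The main test was the quasi-likelihood test of edgeR 4.0.16 under R 4.3.3, with group as its sole term, TMM scaling, the filterByExpr filter and robust dispersions, adjusted by Benjamini-Hochberg over 26866 genes. Standard errors come from the fold change and F. DESeq2 1.42.0 and limma 3.58.1 were alternatives. Paralog ratios use log2(CPM + 1), and pairs are all pairs of members within a family of the same subunit name. Values by library are given for the 3 smallest p and 2 highest means in each complex, the 4 pairs with the smallest p, the isoform genes, and cox6c, ATP5EP2, atp5h and ATP5G2, chosen after their values were seen. The members, lists and tests were chosen with earlier results of these data known. The analysis of chromosomal neighbours was added after seeing the data. No 2 libraries agreed within sampling noise (smallest chi-square per degree of freedom 187 over 66 pairs). With the muscle score, the group labels of the paralog ratios were permuted on the partial correlation. A version that used the coefficient had been run earlier and was dropped with its results seen, because in simulated data without an effect 20.2% of its p-values lay under 0.05, against 5.45% with the partial correlation. With the coefficient 4 pairs had passed. Scripts were tested on simulated data. Alternatives were other scalings, filters, tools, pseudocounts and covariates, a replicate block, and libraries left out. Figures used matplotlib 3.10.9.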

Additional observations from a re-analysis of the deposited data

Results flagged for a closer look

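Values that stood far from the other 5 libraries of their group were looked for among 64 groups of 6 by Dixon's criterion. Chance alone meets it in about 1 of 20 groups (5%) if the values are normally distributed. Gene values entered as CPM without a log, and their distribution was not tested. The groups include ATP5EP2, atp5h and ATP5G2, which were chosen after their values were seen, so the number of such values cannot be read against that share. In GFP 5, cyc1 stood at 1185 CPM (the others 77.7 to 239), ATP5EP2 at 637 CPM (46.9 to 97.4) and cox4i1 at 445 CPM (190 to 227). In GFP 1, ATP5G2 stood at 326 CPM (64.9 to 108). Among MyrRSK melanomas, cox4i2 stood at 195 CPM in MyrRSK 6 (65.7 to 107), cox6a2 at 25.8 CPM in MyrRSK 3 (2.33 to 5.71) and cox6b2 at 216 CPM in MyrRSK 2 (74.7 to 127). In MyrRSK 4, atp5h stood at 171 CPM (115 to 131) and ATP5G2 at 189 CPM (123 to 142). The log2 ratio of COX5A (2 of 3) over cox5aa was 0.66 in GFP 5 (0.37 to 0.47 in the other GFP libraries).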

How the results depend on the processing

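Over all genes, 78 were called higher and 31 lower. The counts were 792 and 760 with DESeq2, 6 and 0 with the replicate number as a block, 1 and 0 with the muscle score, 23 and 7 without GFP 1 and GFP 2, 1 and 0 without MyrRSK 2 and MyrRSK 4, and 17 higher without GFP 1, GFP 2 and GFP 5 (chosen after seeing the data). Lower calls were 65 with a mean count of at least 100 and 20 with limma-voom. With 1 library left out they ranged from 1 to 104 higher and 0 to 84 lower. Members called numbered 7 higher with DESeq2 and 0 in every other setting. The replicate numbers did not pair the samples (correlations of deviations -0.148 to 0.103), and with the block 0 members and 0 paralog pairs passed and cox17 was not called (1.36, adjusted p = 0.0651, edgeR). Of the pairs, 1 passed with a pseudocount of 5 (cox5aa over cox5ab), 0 with the muscle score and 0 to 1 with a library left out. The median log2 fold changes of the 3 complexes stayed above 0 in every setting run, with a lowest value of 0.046 for complex III, 0.17 for IV and 0.047 for V. Some uncalled values changed sign. With the muscle score these included cox8a (-0.17), atp5ia (-0.053) and atp5s (0.0091), and the rest of the list covers only members given by library. With limma-voom and with the replicate block these were uqcrc1 (0.077 and 0.088) and ATP5EP2 (0.059 and 0.19), and with the muscle score ATP5G2 (-0.083). Without GFP 1 and GFP 2 it was atp5h (0.38). Without GFP 1, GFP 2 and GFP 5 they were cyc1 (0.016), uqcrc1 (0.042), COX7A2 (2 of 2) (-0.074), cox4i1 (0.11), cox7a1 (0.48), cox6b2 (0.063), atp5h (0.44) and ATP5EP2 (0.41). With 1 library left out, values ranged from -1.23 to 0.21 for cyc1, -0.26 to 0.25 for uqcrc1, -0.51 to 0.96 for cox6a2, -0.19 to 0.12 for cox4i1, -0.55 to 0.078 for cox7a1, -0.23 to 0.099 for cox6b2, -0.73 to 0.020 for atp5h, -0.94 to 0.58 for ATP5EP2 and -0.032 to 0.61 for ATP5G2. Where no library was left out, the cause was not tested. Counting error weighs most on ATP5J (2 of 2), with 8 to 60 counts per library.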
